A study of Capra hircus with 27 samples.

Results

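Heart and skeletal muscle, the 2 striated muscles of the series, were compared across goats from 3 altitudes. All samples that the labels assign to heart or to muscle were taken, which gave 17 samples (9 heart and 8 muscle) of the 26 in the series. The remaining 9 were lung samples and served only as a reference. The goats were adults of about 3 years, from Ya'an at 600 m, Zhaotong at 2000 m and A'ba at 3000 m, and each altitude was a different population, so altitude and population cannot be told apart. The study's methods describe 3 unrelated females for each of the 600 m and 3000 m populations, from which both tissues were taken, so heart and muscle samples of these altitudes share animals, but the labels do not say that a replicate number marks 1 animal. The models treated the samples as independent, and values with the number as a block are given where they change a call. The sex of the 2000 m goats, and whether both tissues came from the same animals there, was not given in the sources used here. Every heart group had 3 samples, and muscle had 3 samples at 2000 m and 3000 m and 2 samples at 600 m. At 600 m, muscle replicates 1 and 2 were nearly the same library (the spread of their log2 ratio was 0.0849, against 0.193 to 0.4715 in the other 17 replicate pairs of heart and muscle), so their mean FPKM was counted as 1 sample. Which muscle and which part of the heart were taken is not stated in the labels.

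Heart and skeletal muscle both contract through sarcomeres, but they build them and the calcium machinery that drives them partly from different members of the same gene families. Heart muscle works without pause and relies on oxidative metabolism, whereas skeletal muscle holds fibres of several kinds, from slow oxidative to fast glycolytic, and contracts on command of motor nerves. The 2 tissues therefore share a large contractile programme and differ in a set of tissue-specific isoforms.

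Expression was measured by strand-specific RNA-seq of total RNA and was available as log2(FPKM + 1), where FPKM is the number of fragments relative to the length of the transcript and the size of the library. The table listed 22131 genes, of which 12417 (56.1%) had a mean FPKM above 0.5 over the heart and muscle samples and were tested, while 4547 were listed at 0 in every heart and muscle library. Read numbers were not given, so the absolute depth is unknown. The relative depth, read from the FPKM that 1 read is worth in genes with low values, was 0.819 to 1.01 of the mean in heart libraries and 0.925 to 1.23 in muscle libraries. The files do not pair the gene IDs with gene symbols, and 0 of the 22131 IDs matched the RefSeq table used here. Genes are therefore described by the size of their difference, by their level and by ID, and the labelled tissues could not be checked against marker genes.

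Heart and muscle samples were less alike than samples of the same tissue. Over 10887 genes that were expressed in more than 80% of the samples, Pearson's r of log2(FPKM + 1) between 1 heart and 1 muscle sample averaged 0.846 at 600 m, 0.856 at 2000 m and 0.861 at 3000 m. It averaged 0.842 between a heart and a muscle sample from different altitudes. Within heart the mean was 0.963 and within muscle 0.951, across all altitudes. These are correlations across genes of samples that enter many pairs, so they are given as a description. The filter kept only genes expressed in samples of both tissues, so they do not show how far the tissues express the same genes. Of the summed variation of log2(FPKM + 1) over the tested genes, tissue held 64.8%, altitude 12.5%, their interaction 5.22% and the spread within groups 17.0%. Genes with very large differences weigh most in these sums, and the median shares of a single gene were 34.3% for tissue, 13.9% for altitude, 6.89% for the interaction and 27.7% within groups. Tissue held more than altitude in 62.4% of the genes. The median SD of a gene over the samples of a tissue was 0.222 in heart and 0.274 in muscle.

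As deposited, more genes had an FPKM above 0.5 in heart. The samples were not rescaled for this count, although the deposited values were higher in heart as a whole (median difference 0.26 on the log2 scale, below). On average 55.0% ± 1.47 (SD, n = 9) of all genes had an FPKM above 0.5 in heart, and 52.9% ± 0.736 (SD, n = 8) in muscle, a difference of 2.11 percentage points (exact two-sided permutation test, p = 0.00280, adjusted over 3 measures 0.00839). The permutation tests shuffled tissue labels over all 17 samples, without altitude as a term and without regard to shared animals. The groups overlapped, with 52.8% to 56.8% in heart and 51.9% to 54.0% in muscle. The difference was 1.29 percentage points at 600 m, 3.49 at 2000 m and 1.86 at 3000 m, and the relative depth had a median of 0.928 in heart libraries and 1.10 in muscle libraries. Above an FPKM of 0.1 the difference was 0.992 percentage points and did not pass (exact permutation p = 0.154). The 10 most abundant genes held 28.3% ± 3.69 of the FPKM in heart (SD, n = 9) and 28.4% ± 4.33 in muscle (SD, n = 8), a difference within the spread between samples (exact permutation p = 0.976). Of the 10 genes with the highest mean, 4 were shared by the tissues, and of the 100 highest, 64 were shared.

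With altitude as a term in the model, 7628 genes (61.4% of those tested) differed between heart and muscle at an FDR-adjusted p of at most 0.05 (limma). As deposited, 5572 genes (44.9%) were higher in heart and 2056 (16.6%) were higher in muscle. In bulk tissue, fewer cells of a type and less RNA per cell cannot be told apart. The direction of the whole distribution depended on the scaling of the samples. The median difference over all tested genes, heart minus muscle, was 0.26 on the log2 scale as deposited, and 0.01 after the samples had been rescaled by the median of their gene ratios. After that rescaling 3738 genes were higher in heart and 3760 higher in muscle, and quantile normalization gave 3719 and 3728. The share of the called genes that was higher in heart thus fell from 73.0% as deposited to 49.9%. After rescaling by the median of ratios 1687 genes were newly called higher in muscle and 1798 genes were no longer called higher in heart, while 0 genes turned from higher in heart to higher in muscle. Under all 3 scalings 3367 genes were higher in heart and 2055 were higher in muscle.

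Most differences were small, and a limited number of genes separated the tissues fully. The median size among the called genes was 0.73 on the log2 scale. At least 2-fold differences (on the log2(FPKM + 1) scale, where changes of weakly expressed genes come out too small) were found for 1675 genes higher in heart and 759 higher in muscle. At least 4-fold differences were found for 404 and 278 genes, and at least 16-fold differences for 90 and 87 genes. At 256-fold or more the order turned, with 4 genes higher in heart and 21 higher in muscle. After rescaling by the median of ratios the counts of at least 4-fold genes were 315 in heart and 344 in muscle, so the excess of heart at that size also depended on the scaling, whereas the counts of at least 256-fold genes were 4 and 23. Every heart sample lay above every muscle sample for 1791 genes (14.4% of those tested), and below every muscle sample for 671 genes (5.40%), so that the samples of the tissues did not overlap for 2462 genes (19.8%). In the other direction, the 95% interval of the difference as deposited lay within 1 log2 unit of 0 for 8047 genes (64.8%). It lay within 0.5 of 0 for 3069 genes (24.7%). These bounds hold on the log2(FPKM + 1) scale, where weakly expressed genes can hardly reach 1 unit. They therefore do not limit the fold change of FPKM in such genes, and they were not computed under the other scalings.

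Strict on and off patterns were rare among the 22131 genes listed. With an FPKM above 1 in every sample of a tissue and below 0.5 in every sample of the other, 81 genes were on in heart alone of the pair and 64 in muscle alone. With an FPKM above 10 in every sample of the expressing tissue there were 26 and 22 such genes. In lung, 8 of the 26 heart genes and 14 of the 22 muscle genes were also below 0.5 in all 9 samples, while 9 and 3 were above 0.5 in all of them. Above an FPKM of 100 no gene was on in heart and off in muscle, and 5 were on in muscle and off in heart. These counts depend on the cut of 0.5 in the other tissue. The gene goat_GLEAN_10001033, with a mean FPKM of 8314 in heart and 5.01 in muscle, did not meet it. Nor did GOAT_ENSP00000361636, at 46912 in muscle and 15.1 in heart.

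The genes with large differences took a large share of the transcripts in muscle. The 21 genes at least 256-fold higher in muscle held 13.1% ± 3.51 of its FPKM (SD, n = 8) and 0.00487% ± 0.00355 of that of heart (SD, n = 9). The 4 genes at least 256-fold higher in heart held 2.25% ± 0.373 of its FPKM and 0.00205% ± 0.00174 of that of muscle. At 16-fold and more, the 87 muscle genes held 15.8% of the FPKM of muscle, from 8.94% to 21.8% among samples, and the 90 heart genes held 5.10% of that of heart, from 3.38% to 6.01%. These genes were chosen by the same values, so the shares describe the size of the difference and are no test of it.

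Lung, which was not used to choose the genes, was mostly below or nearer to the tissue with the lower level, whichever that was. Of the 278 genes at least 4-fold higher in muscle, lung was below heart in 113 (40.6%), between the tissues but nearer to heart in 110, nearer to muscle in 44 and above muscle in 11 (3.96%). Of the 404 genes at least 4-fold higher in heart, lung was below muscle in 84 (20.8%), nearer to muscle in 149, nearer to heart in 118 and above heart in 53 (13.1%). The genes were chosen for a low level in 1 tissue, so these counts are a description, and the contrast between the lists was not tested.

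The tissue difference was found at all levels of expression. It was called in 56.2% of the 2386 genes with a mean FPKM from 0.5 to 2, in 58.7% of the 4915 genes from 2 to 10, in 64.1% of the 3609 genes from 10 to 50 and in 72.1% of the 1507 genes above 50. In the lowest tier 81.6% of the called genes were higher in heart as deposited and 64.9% after rescaling by the median of ratios. In the tier from 10 to 50 these shares were 66.3% and 41.2%, so the majority there turned with the scaling. The gene models fell into 3 kinds by the prefix of their IDs. Of the 4460 models with the GLEAN prefix, 913 (20.5%) passed the filter on low values and 52.0% of those were called, against 62.5% of 5828 tested models with the ENSBTAP prefix and 61.9% of 5676 with the ENSP prefix. Among 1299 models marked as a further copy, 271 were tested and 60.1% of those were called. Reads may be shared between such copies, so values of single copies are uncertain.

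The largest difference in favour of heart was that of goat_GLEAN_10001033. Its FPKM in heart was 7951, 6460 and 5528 at 600 m, 8413, 6145 and 7823 at 2000 m, and 11675, 11310 and 9517 at 3000 m. In muscle it ranged from 0.794 to 19.98 over the 8 samples, and in lung from 0.0881 to 6.504. Every heart sample was more than 100-fold above every sample of the other tissues, and heart was higher than muscle by 10.92 on the log2 scale (SE 0.25, limma adjusted p = 1.56e-16). GOAT_ENSBTAP00000008425 followed, with an FPKM of 6254 to 10630 in heart and a difference of 9.92 (SE 0.17, limma adjusted p = 3.20e-18). Its FPKM in muscle was 4.86 and 2.95 at 600 m, 7.05, 6.27 and 4.11 at 2000 m, and 15.1, 15.5 and 13.7 at 3000 m. The 3 muscle samples from 3000 m thus lay above the other 5, and the difference shrank by 1.42 from 600 m to 3000 m (SE 0.28, limma adjusted p = 0.0359), while the F test over the 3 altitudes gave an adjusted p of 0.0575.

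In favour of muscle, GOAT_ENSP00000361636 had the largest difference with a pseudocount of 1 (with 0.1 it was -12.32, behind GOAT_ENSP00000325239 at -12.49), and was also one of the most abundant transcripts of the tissue. Its FPKM in muscle was 50441 and 27497 at 600 m, 54233, 51410 and 59738 at 2000 m, and 39408, 44015 and 48557 at 3000 m. In heart it was 0, 3.15 and 3.00 at 600 m, 17.4, 23.6 and 28.3 at 2000 m, and 22.6, 22.7 and 15.3 at 3000 m. Heart was lower by 11.89 on the log2 scale (SE 0.38, limma adjusted p = 1.41e-14), and within heart the samples from 600 m lay below all others. Heart minus muscle rose from -13.83 at 600 m to -11.18 at 2000 m, so the gap narrowed. The change was 2.65 (SE 0.62, limma adjusted p = 0.0392, and 0.0633 after the median of ratios), while the F test gave an adjusted p of 0.0575. GOAT_ENSP00000325239 had an FPKM of 5537 to 21160 in muscle. In heart it was listed at 0 in all 3 samples from 600 m, was 5.45, 14.7 and 12.3 at 2000 m, and 6.58, 6.07 and 7.38 at 3000 m. Its fitted difference over all altitudes was -11.43 (SE 0.27, limma adjusted p = 1.56e-16), a value that depends on the pseudocount because of the samples at 0. Its heart minus muscle difference rose by 2.05 from 600 m to 2000 m (SE 0.41, limma adjusted p = 0.0275), and the F test over the 3 altitudes gave an adjusted p of 0.0496 as deposited, which places it among the genes whose difference changed with altitude, but 0.0861 after the median of ratios and 0.108 after quantile normalization. Under the alternatives tried, each of these 4 differences kept its direction and passed the threshold.

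**Figure D1:**
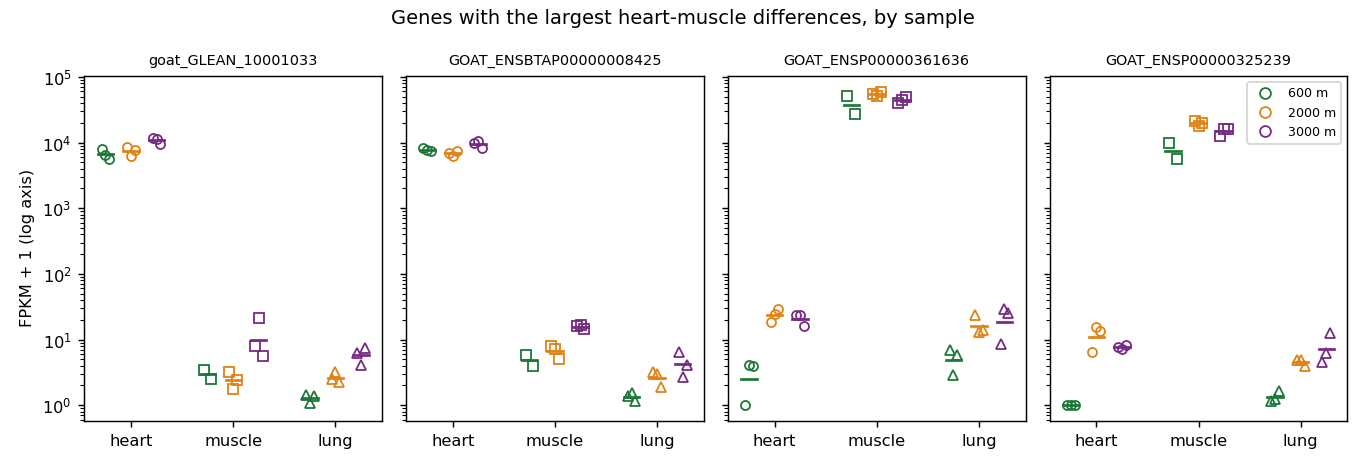
FPKM + 1 (log axis) of the 2 genes with the largest difference in favour of heart (left panels) and of muscle (right panels), 1 point per sample, with bars at the mean on the log scale and colours for altitude. The expressing tissue lies above an FPKM of 5000 in all 4 panels, while the other striated muscle and lung stay below 30, and the lowest of those values are at 600 m in most panels.

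The low values of these genes in the other tissue differed between 600 m and the higher altitudes, most clearly for the muscle genes in heart. The 21 genes at least 256-fold higher in muscle held 0.000708% ± 0.000237 of the FPKM of heart at 600 m (SD, n = 3), 0.00825% ± 0.00251 at 2000 m and 0.00564% ± 0.000359 at 3000 m. The samples from 600 m, at 0.000435% to 0.000858%, did not overlap with those from the higher altitudes, which lay from 0.00523% to 0.0104%. In heart, 20 of the 21 genes were higher at both higher altitudes than at 600 m, against 49.8% of all tested genes. In muscle itself the 21 genes held 8.76% at 600 m, 16.2% at 2000 m and 12.9% at 3000 m. The rise in heart was thus the larger in relative terms. In muscle 17 of the 21 were higher at both higher altitudes, against 33.2% of all tested genes. In lung the 21 genes held 0.00973%, 0.0148% and 0.0147%, and 15 of 21 were higher at both higher altitudes, against 32.3% of all tested genes.

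At lower fold the 87 genes at least 16-fold higher in muscle held 0.0259% of the FPKM of heart at 600 m, 0.0497% at 2000 m and 0.0425% at 3000 m. Of these 87 genes, 60 were higher in heart at both higher altitudes, against 49.8% of all tested genes. In muscle itself 59 of the 87 were higher at both, against 33.2%, and in lung 51 were, against 32.3%. For the heart genes the change in muscle was mainly at 3000 m. The 4 genes at least 256-fold higher in heart held 0.000783% of the FPKM of muscle at 600 m, 0.00106% at 2000 m and 0.00387% at 3000 m, and 0.000962%, 0.00148% and 0.00327% of that of lung. In heart itself they held 1.92%, 2.23% and 2.61%. Of the 90 genes at least 16-fold higher in heart, 51 were higher in muscle at both higher altitudes, against 33.2% of all tested genes. In heart itself 55 of the 90 were higher at both, against 49.8% of all tested genes. In lung 41 of the 90 were higher at both, against 32.3% of all tested genes, and 31 were lower at both. The heart and muscle values took part in the choice of these genes, so the shares are a description, and the source of these low values was not tested.

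**Figure D2:**
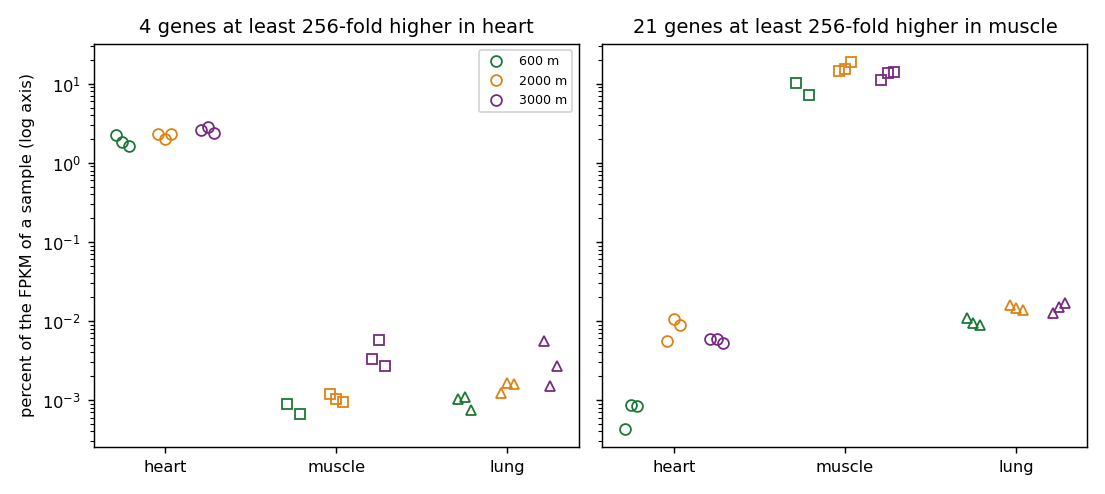
Percent of the FPKM of a sample (log axis) held by the 4 genes at least 256-fold higher in heart (left) and the 21 genes at least 256-fold higher in muscle (right), 1 point per sample. The 3 heart samples from 600 m, at 0.000435% to 0.000858%, lie below the 6 other heart samples for the muscle genes, and the muscle samples from 3000 m lie highest for the heart genes.

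The difference between the tissues was called at each altitude. At 600 m 4640 genes (37.4% of those tested) passed the threshold, at 2000 m 6148 (49.5%) and at 3000 m 5344 (43.0%), in 1 fit of the 6 groups by limma. Heart was higher in 2765 genes (22.3%) at 600 m, in 4919 (39.6%) at 2000 m and in 3965 (31.9%) at 3000 m, and muscle in 1875 (15.1%), 1229 (9.90%) and 1379 (11.1%). As deposited, the share higher in heart was 59.6% at 600 m, 80.01% at 2000 m and 74.2% at 3000 m, and after rescaling by the median of ratios it was 47.4%, 47.9% and 49.7%. The order of the altitudes in these shares therefore moved with the shift of the whole distribution, whose median was 0.11, 0.39 and 0.25 on the log2 scale as deposited. Fewer samples entered at 600 m, where muscle had 2.

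**Figure D3:**
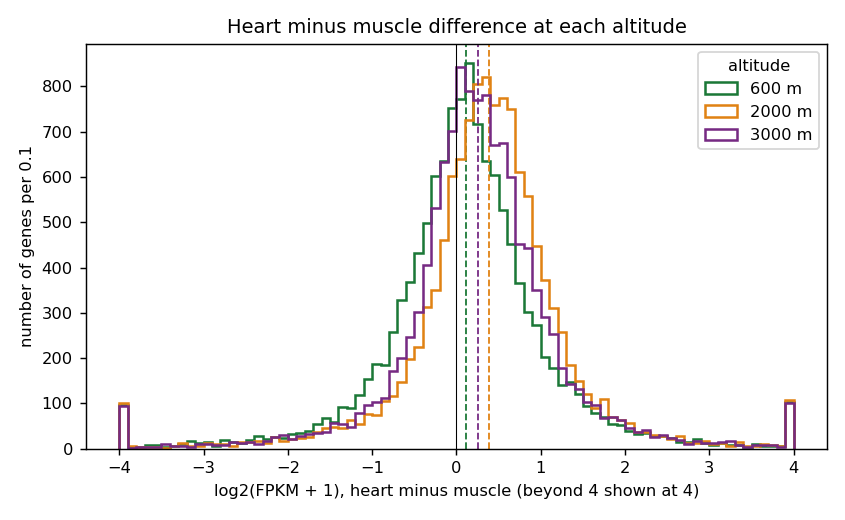
Number of genes per 0.1 of the heart minus muscle difference in log2(FPKM + 1), as deposited, for each altitude, with dashed lines at the medians and values beyond 4 drawn at 4. The 3 distributions overlap widely and are displaced, with medians of 0.11 at 600 m, 0.39 at 2000 m and 0.25 at 3000 m.

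The larger the difference, the more often it was called at every altitude. At every altitude, with 1 sign, 2828 genes (22.8% of those tested) were called, 2071 higher in heart (16.7%) and 757 higher in muscle (6.10%), as deposited. After rescaling by the median of ratios 1289 genes were higher in heart and 1439 in muscle, and after quantile normalization 1448 and 1398, so the excess of heart depended on the scaling. Under all 3 scalings 1184 and 756 genes passed at every altitude. Among the 7628 genes called over all altitudes, 94.6% had the same sign at the 3 altitudes and 37.1% were called at each. Of the 2434 genes with at least a 2-fold difference 80.6% were called at each altitude. For the 682 genes with at least a 4-fold difference the sign was the same at all 3 altitudes in 100% and 94.9% were called at each, and of the 177 with at least a 16-fold difference 98.9% were. The all-altitude call used the same samples, and a larger difference is easier to call at each altitude. The rise of these shares with size is therefore a description and no test.

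Comparisons at separate altitudes share no samples and can be set against each other. Across the 12417 genes, Pearson's r between the differences at 2000 m and 3000 m was 0.933, and it was 0.862 between 600 m and 2000 m and 0.877 between 600 m and 3000 m. The change of the difference stayed within 1 log2 unit in 97.3% of the genes between 2000 m and 3000 m, and in 89.5% and 92.5% of the genes for the pairs with 600 m. Of the genes called at both altitudes of a pair, 4 of 4342 had opposite signs at 2000 m and 3000 m, 48 of 3222 at 600 m and 2000 m, and 16 of 3240 at 600 m and 3000 m. The correlations are across genes, which are not independent replicates. The calls came from 1 fit of the 6 groups with a shared estimate of the spread, so they are not independent between altitudes. Muscle had 2 samples at 600 m, so the difference there is less precise. How far this lowers the values of the pairs with 600 m was not tested.

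**Figure D4:**
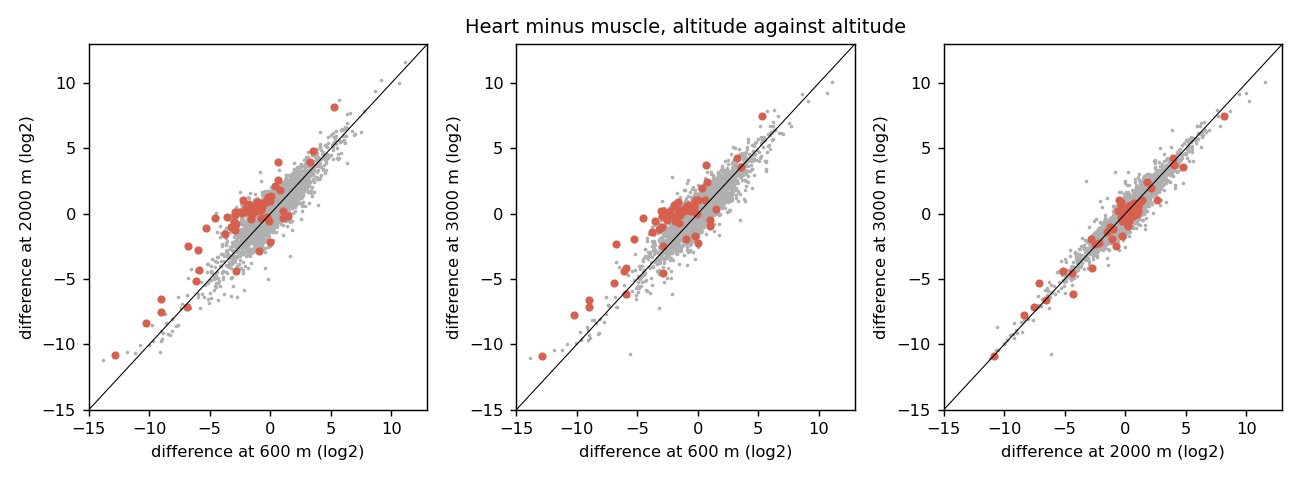
Heart minus muscle difference (log2 scale) of each of 12417 genes at 1 altitude against another, with the line of equal difference and, in red, the 63 genes whose difference changed with altitude. The points lie closest to the line for 2000 m against 3000 m, and most red points lie above it in the 2 panels with 600 m.

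A change of the tissue difference with altitude was called for few genes. The F test over the 3 altitudes passed for 63 genes (0.507% of those tested, limma), and 2515 had an unadjusted p under 0.05. Between 2000 m and 600 m 397 genes (3.20%) passed, with a rise of the heart minus muscle difference in 337 (2.71%) and a fall in 60 (0.483%). Between 3000 m and 600 m 60 genes (0.483%) passed, with a rise in 48 (0.387%) and a fall in 12 (0.0966%). These 2 contrasts share the 600 m samples. The excess of rises depended on the scaling. After rescaling by the median of ratios 101 genes rose and 107 fell between 2000 m and 600 m, and 39 rose and 19 fell between 3000 m and 600 m, and quantile normalization gave 84 and 81, and 34 and 24. Of the genes past the F test, the difference rose from 600 m to 3000 m in 54 and fell in 9 as deposited, rose in 30 and fell in 14 after the median of ratios, and rose in 38 and fell in 28 after quantile normalization. Between 3000 m and 2000 m 0 genes passed by limma as deposited, 1 passed after the median of ratios and 0 after quantile normalization, and 1071 had an unadjusted p under 0.05 as deposited. The count of 63 rested on single samples. It was 15 to 535 when 1 sample was left out in turn, with the lowest value without heart replicate 2 at 600 m and the highest without the averaged muscle sample at 600 m, and it was 448 without muscle replicate 2 at 3000 m. With the replicate number as a block it was 17, all of them rises.

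The 63 genes moved mainly through the 600 m samples. Heart minus muscle was lowest at 600 m in 52 of them and highest there in 6. Its median change was 1.60 on the log2 scale from 600 m to 2000 m and 1.51 from 600 m to 3000 m, against 0.26 and 0.15 over all tested genes, and -0.11 from 2000 m to 3000 m. Muscle was lower at both higher altitudes than at 600 m in 46 genes, heart was higher at both in 35, and both held in 25. Over all tested genes heart was higher at both in 49.8%, so the count of 35 lies near the general share. For the other counts no share over all tested genes is given here. As deposited, the median difference over all tested genes was also lowest at 600 m (0.11, against 0.39 at 2000 m and 0.25 at 3000 m). These counts are therefore not set apart from that general shift. The mean change from 600 m was larger in muscle in 50 genes. The sign of the difference turned between altitudes in 34. After rescaling by the median of ratios 35 of the 63 still passed, after quantile normalization 37, and under all 3 scalings 33. The values chose these genes, so their pattern is a description.

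The largest rise of the heart minus muscle difference from 600 m to 3000 m was found for GOAT_ENSBTAP00000009302, a transcript nearly absent from heart. Its FPKM in muscle was 59.5 and 214 at 600 m, 3.21, 5.24 and 7.53 at 2000 m, and 3.10, 10.95 and 2.15 at 3000 m, while heart had at most 0.151 and lung at most 0.601. Muscle was therefore high at 600 m, although the 2 samples at 600 m differed from each other by more than 3-fold. The change was 4.47 on the log2 scale (SE 0.68, F test adjusted p = 0.0130 by limma). GOAT_ENSP00000225688 was likewise high in muscle at 600 m, but was also expressed in heart. Its FPKM in muscle was 118.6 and 119.3 at 600 m and 1.44 to 6.91 at the higher altitudes, and that of heart was 1.53 to 5.80 at all altitudes. Its change was 4.25 (SE 0.58, F test adjusted p = 0.00492 by limma), and no tissue difference passed at 2000 m (-0.34, SE 0.38) or 3000 m (-0.30, SE 0.38).

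In the other direction, GOAT_ENSP00000368696 had an FPKM of 17.7 and 10.7 in muscle at 600 m, 50.9, 84.9 and 68.0 at 2000 m, and 78.3, 48.2 and 74.9 at 3000 m. Heart stayed between 11.2 and 18.02 throughout, and the tissues differed by 0.0031 at 600 m (SE 0.27). Heart minus muscle fell by 2.26 from 600 m to 3000 m (SE 0.36, F test adjusted p = 0.0185 by limma), a call that was lost without muscle replicate 3 at 600 m (adjusted p = 0.0820) without heart replicate 3 at 600 m (0.0522) and with the replicate block (0.0806). For GOAT_ENSBTAP00000013974 the order of the tissues turned. Its FPKM in heart was 12.98, 10.6 and 9.09 at 600 m, 15.2, 15.7 and 16.1 at 2000 m, and 8.64, 10.1 and 9.17 at 3000 m. In muscle it was 4.11 and 5.42, then 15.2, 14.3 and 10.98, and then 18.6, 17.6 and 19.0. Heart was higher by 1.04 at 600 m (SE 0.17) and lower by 0.92 at 3000 m (-0.92, SE 0.15). The F test by limma gave an adjusted p of 0.00418, and of 0.0542 with the replicate block, where the call was lost.

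**Figure D5:**
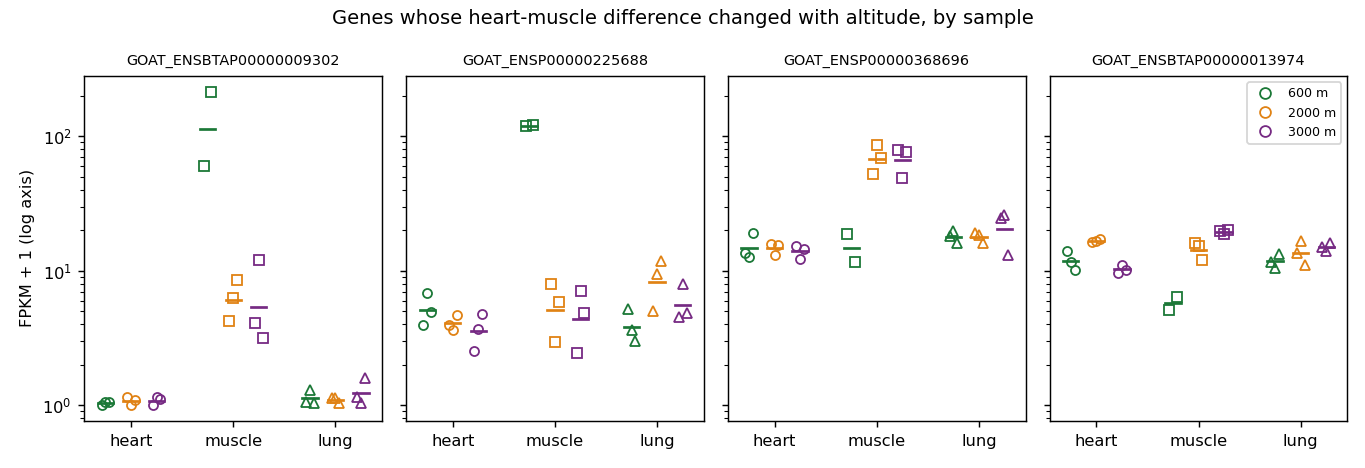
FPKM + 1 (log axis) of the 4 genes named for a change of the heart-muscle difference with altitude, 1 point per sample, with bars at the mean on the log scale and colours for altitude. In the first 2 panels muscle at 600 m stands above all other samples, in the third it is the only muscle group at the level of heart, and in the fourth it is the lowest group and muscle at 3000 m the highest.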

How the data were processed

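Heart and muscle libraries of 3 populations were compared. The labels name TopHat2 2.0.11 and Cufflinks 2.2.1, with which the authors aligned reads and estimated FPKM, and the deposited values are log2(FPKM + 1) with no filter applied. The methods describe these steps for 600 m and 3000 m animals, and those for 2000 m were not given in the sources used here. FPKM was taken back from the logarithm by subtracting 1 from the exponentiated value (base 2). Genes with mean FPKM above 0.5 were fitted on log2(FPKM + 1), pseudocount 1, with limma 3.58.1 in R 4.3.3 (eBayes with trend, two-sided, Benjamini-Hochberg threshold 0.05): tissue and altitude as additive terms, or the 6 groups for contrasts and interaction. Cuffdiff, which the study ran only between altitudes, needs files not used here. Sample measures were tested by exact permutation over all samples, without altitude as a term. The step was tested on simulated data.

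Nothing in the labels says how replicates were obtained beyond separate samples, so p-values measure the spread between these samples, and the number of samples per group limits precision. Relative depth came from the commonest ratio of FPKM values below 0.15 in 111 of 153 library pairs, whose scatter was 0.0430 (SD, log2). Alternatives were pseudocount, filter, scaling, trend, samples in the fit, replicate block, the near-identical pair, and each sample left out. Gene lists and tissue markers fixed for named genes could not be used, since no ID had a symbol. IDs were named by rule: for the tissue difference the 2 largest in each direction among genes called at every altitude with 1 sign, and for dependence on altitude the 2 largest rises and falls from 600 m to 3000 m among genes past the F test. The comparison, its rules and its lists were chosen with earlier results of these data known. Analyses used Python 3.11.15, NumPy 2.4.6, pandas 2.3.3, SciPy 1.17.1 and matplotlib 3.10.9.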

Additional observations from a re-analysis of the deposited data

Results flagged for a closer look

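In muscle, 1 sample stood apart in the share of FPKM held by the 10 most abundant genes. It was the averaged sample from 600 m, at 38.9%, and the 7 others lay between 25.6% and 28.2%, so that its gap was 0.802 of the range of the group. In all, 14 groups of 4 to 10 samples were tested in this way, of which chance flags about 1 in 20.

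The change of the heart-muscle difference with altitude was tested directly, and 63 genes passed the interaction F test (limma). The named genes had changes from 600 m to 3000 m of 4.47 for GOAT_ENSBTAP00000009302, 4.25 for GOAT_ENSP00000225688, -2.26 for GOAT_ENSP00000368696 and -1.96 for GOAT_ENSBTAP00000013974, all on the log2 scale.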

How the results depend on the processing

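The counts of genes that differed between heart and muscle, over all altitudes and at each, stayed within 1.5 times of the reported value under every alternative run. Leaving out 1 sample gave 7311 to 7814 over all altitudes, 3180 to 4853 at 600 m, 5259 to 6355 at 2000 m, 4335 to 5537 at 3000 m and 2264 to 2963 at every altitude. Without the 600 m samples, an alternative chosen after seeing the data, 7508 genes were called. The number whose difference changed with altitude, 63, was the unstable result. It was 32 with a pseudocount of 0.1, 336 with muscle replicates 1 and 2 at 600 m as separate samples, and 15 to 535 with 1 sample left out (448 without muscle replicate 2 at 3000 m), where 13 of 17 omissions moved it by more than 1.5 times. The cause was not tested.

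The labels do not say that a replicate number marks 1 animal. Deviations from group means correlated at -0.250 to 0.302 for 9 same-numbered pairs and at -0.302 to 0.291 for others. At 3000 m the ranges did not overlap, with 0.252 to 0.294 for the 3 same-numbered pairs and -0.214 to 0.00373 for others. They overlapped at 2000 m, with -0.250 to 0.0812 for same-numbered pairs and -0.258 to 0.291 for others. Muscle had 2 samples at 600 m, whose deviations are exact opposites, so 0.302 and -0.302 are 1 value with both signs. Among heart samples from the higher altitudes, 4 of 6 correlated best with their own number. With the number as a replicate block, 17 genes changed with altitude, all rises, no count of tissue calls moved by more than 1.5 times, and the adjusted p was 0.0806 for GOAT_ENSP00000368696 (change -2.26) and 0.0542 for GOAT_ENSBTAP00000013974 (-1.95).

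The 2.11-point difference in detected genes was 1.89 to 2.39 with 1 sample left out, 3.49 within 2000 m and 0.992 above an FPKM of 0.1. The difference in the top 10 share, heart minus muscle, was -0.054 points, -0.936 to 1.44 with 1 sample left out (0.051, 0.27, 0.012, 0.275, 0.174 and 0.539 without single heart samples from 600 m and 2000 m, and 1.44 without the averaged muscle sample), -5.21 within 600 m and 5.65 within 3000 m. The number of most abundant genes that together hold 50% of the FPKM differed by 4.52 (exact permutation p = 0.637), by 0.333 without the averaged muscle sample, by 10.8 without muscle replicate 3 at 600 m and by -12 within 3000 m. Read numbers were not given, so depth limits what low values can show.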
